A study of Mus musculus with 16 samples.

Results

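The transcripts described here are those of 3 genes for subunits of the basolateral amino acid exchangers of the renal tubule: the light chains Slc7a7 and Slc7a8 and their common heavy chain Slc3a2. They were chosen by their known role and on the knockout to wild-type ratios of these same arrays, so those ratios are given as a description and are not tested. Every probe that names 1 of the 3 genes and no other was taken, which gave 3 probes of 20205, 1 for each gene, out of 9669 genes named by a single-gene probe. All 3 probes carried a value on all 16 arrays. No probe annotated to several genes named a member.

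Heteromeric amino acid exchangers are pairs of proteins. The heavy chain, the CD98 glycoprotein encoded by Slc3a2, brings the pair to the basolateral membrane, and the light chain bound to it by a disulfide bridge carries the amino acids. With Slc7a7 (y+LAT1) the pair lets cationic amino acids such as lysine and arginine leave the cell in exchange for neutral amino acids and sodium, and in humans loss of SLC7A7 causes lysinuric protein intolerance. With Slc7a8 (LAT2) it exchanges neutral amino acids across the same membrane. In the proximal tubule these pairs lie opposite the brush border, where PEPT2, the product of Slc15a2, takes up dipeptides and tripeptides from the filtrate.

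The 2 light chain genes lie on 1 chromosome and are read from the same strand, and their ratios had opposite signs, so the bases just before their starts are shown beside those of Slc3a2. The stretches are the 150 bases before a start, from RefSeq on build GRCm38.p6, minus strand, 5′ to 3′. Capitals mark matches, on either strand, to TGATGNAA (the core of the amino acid response element), GTTAAT (a short motif of the tubule factor HNF1) or GGGCGG (the GC box), motifs that were chosen with the sequences in view. No motif contains another. Of the 5 starts listed for Slc7a7, the outer start lies farthest upstream and the inner start farthest downstream.
Slc7a7, outer start, chr14:54417945-54418094: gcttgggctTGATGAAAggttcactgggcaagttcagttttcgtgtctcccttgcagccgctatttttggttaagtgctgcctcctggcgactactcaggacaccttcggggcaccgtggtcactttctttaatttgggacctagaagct
Slc7a7, inner start, chr14:54409473-54409622: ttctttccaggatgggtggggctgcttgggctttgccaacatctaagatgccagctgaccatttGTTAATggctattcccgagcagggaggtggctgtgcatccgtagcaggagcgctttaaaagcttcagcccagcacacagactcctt
Slc7a8, chr14:54781887-54782036: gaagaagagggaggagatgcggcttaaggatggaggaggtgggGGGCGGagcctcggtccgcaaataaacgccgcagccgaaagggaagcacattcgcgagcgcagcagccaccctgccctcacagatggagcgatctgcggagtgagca
Slc3a2, chr19:8713898-8714047: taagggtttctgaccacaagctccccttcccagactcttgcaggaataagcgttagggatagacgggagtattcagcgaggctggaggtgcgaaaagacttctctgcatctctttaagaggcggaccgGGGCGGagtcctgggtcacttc
The other 3 starts of Slc7a7 had no match. The response element core lay 141 bases before the outer start of Slc7a7 and the HNF1 motif 86 bases before its inner start, while a GC box lay 107 bases before the start of Slc7a8 and 22 bases before that of Slc3a2. Over all 32851 promoters of the table, 2.23% held the response element core, 3.71% the HNF1 motif and 28.6% the GC box in a stretch of this length. These shares are for 1 stretch, and Slc7a7, with 5 stretches searched, had more chances of a match. A match describes letters in this window and nothing more.

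Right kidneys came from 4 male mice that lacked Slc15a2 (Pept2-/-) and were set against 1 pool of RNA from 5 right kidneys of wild-type mice (Pept2+/+). The animals, of mixed C57BL/6 and 129Sv ancestry, descended from F4 mice of a heterozygous line (Pept2+/-) and were taken at 88 (±2) days of age. Each knockout mouse was hybridised to 4 spotted cDNA arrays carrying both dyes, on 2 of them with the knockout RNA in channel 1 and on 2 with it in channel 2. Arrays of a mouse are technical repeats, so n is 4 mice, and because the wild-type kidneys were pooled their own spread is in none of the errors.

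An array held values for between 10134 and 18400 probes. The deposited ratio was read as channel 1 over channel 2 because Slc15a2 then stood below the pool on all 16 arrays, at a log2 ratio from -3.77 to -1.45 with a mean of -2.51 ± 0.31 (SD, n = 4 mice). With the other reading every sign given here would turn. All values below are log2 ratios of Pept2 knockout over wild-type pool after centring each array on its median. Such a ratio holds no level, so levels of different genes, and the identity of the tissue by its markers, could not be read from it. In whole kidney RNA, fewer cells of a type and less RNA per cell cannot be told apart.

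Slc7a7 stood above the pool in every knockout mouse and on every array. Mice 1 to 4 had log2 ratios of 0.35, 0.31, 0.47 and 0.35. Mouse 3 was the highest and the other mice lay close together. The mean was 0.37 ± 0.07 (SD, n = 4 mice), or 1.29-fold higher in knockout kidney. On single arrays it ran from 0.20 through a median of 0.33 to 0.75, and both the lowest and the highest were arrays of mouse 3. With the knockout RNA in channel 1 the mean of the 8 arrays was 0.42, and with it in channel 2 it was 0.32, all 8 arrays being positive in each orientation. Among the 6191 genes with values in every mouse and orientation it ranked 15th from the highest, on the ratio by which it was chosen. Slc3a2 ranked 515th from the highest and Slc7a8 113th from the lowest. A spotted cDNA need not tell apart close relatives, and Slc7a6, which encodes the related y+LAT2, stood at 0.05.

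Slc3a2, the heavy chain that both light chains need, lay above the pool in each mouse but by less. The log2 ratios were 0.13, 0.05, 0.12 and 0.18 in mice 1 to 4, with mouse 2 nearest to 0. The mean was 0.12 ± 0.05 (SD, n = 4 mice), or 1.09-fold higher in knockout kidney. On single arrays it ran from -0.19 through a median of 0.12 to 0.41, with 13 arrays positive and 3 negative. No mouse reached the lowest mouse of Slc7a7. Both orientations gave the same mean, 0.12.

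Slc7a8, the light chain for neutral amino acids, stood below the pool in each mouse. Mice 1 to 4 had log2 ratios of -0.44, -0.14, -0.29 and -0.10. Mice 1 and 3 were lower than mice 2 and 4. The mean was -0.24 ± 0.16 (SD, n = 4 mice), or 1.18-fold lower in knockout kidney. On single arrays it ran from -0.58 through a median of -0.24 to 0.40, with 13 arrays negative and 3 positive. All 3 positive arrays had the knockout RNA in channel 1. In that orientation the 8 arrays averaged -0.12, against -0.37 for the 8 arrays with the knockout RNA in channel 2.

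**Figure D1:**
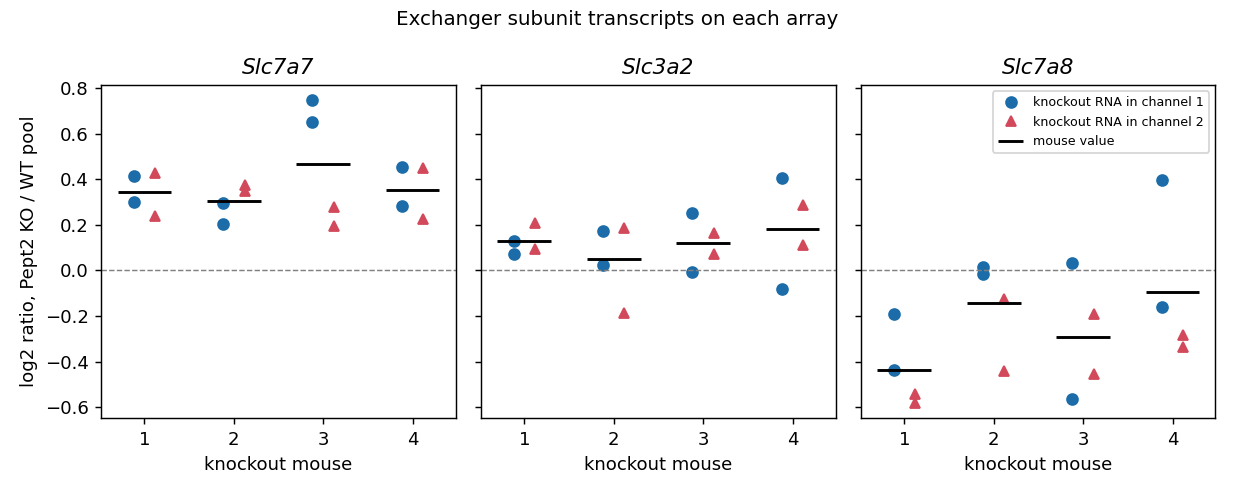
Log2 ratio of Pept2 knockout over wild-type pool (vertical axis) for Slc7a7, Slc3a2 and Slc7a8 on each of the 16 arrays, by knockout mouse (horizontal axis). Circles have the knockout RNA in channel 1, triangles in channel 2, and bars are the mouse values. All arrays of Slc7a7 lie above 0, from 0.20 to 0.75, while Slc7a8 is negative on all 8 channel 2 arrays and on 5 of the 8 channel 1 arrays.

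The orientation difference, in which the knockout ratio cancels, was tested for every probe. For Slc7a8 channel 1 minus channel 2 was 0.25 ± 0.15 (SD, n = 4 mice) and positive in 4 of 4 mice, at 0.25, 0.28, 0.06 and 0.43. Its adjusted p was 0.209 in limma, with an unadjusted p of 0.0218. For Slc7a7 the difference was 0.10 ± 0.25 (adjusted p = 0.624), of which mouse 3 alone gave 0.46 and mouse 2 gave -0.11. For Slc3a2 it was 0.00 ± 0.07 (adjusted p = 0.982). Of 10804 probes, 0 passed an adjusted p of 0.05 (0%) and 2040 were at an unadjusted p under 0.05 (18.9%), and 15.5% of probes had an orientation difference at least as large as that of Slc7a8. A p that misses the threshold does not show that a probe has no dye bias.

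In the limma fit of the knockout ratio over all genes, 13 of 6191 genes (0.21%) passed an adjusted p of 0.05, 4 of them higher (0.0646%) and 9 lower (0.145%) in knockout kidney. Without adjustment, 1041 genes (16.8%) had a p under 0.05. The adjusted count rested on few animals. It was 3 of 6551 genes without mouse 1 and 1 of 6490 without mouse 2. Without mouse 3 it was 6 of 7285, and without mouse 4 it was 5 of 6197. By orientation it was 10 of 7251 genes with knockout RNA in channel 1 only and 1 of 6672 in channel 2 only. It was 40 of 2681 genes (1.49%) with probes limited to those with a value on all 16 arrays. The subunits were chosen with this contrast known, so no call of theirs in it is given.

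The subunits were next compared with each other on the same array, where the centring and any shift of the whole array cancel but a dye bias of a single probe does not. Slc7a7 exceeded Slc7a8 on all 16 arrays. The difference of their log2 ratios in mice 1 to 4 was 0.78, 0.45, 0.76 and 0.45, with a mean of 0.61 ± 0.19 (SD, n = 4 mice). The smallest difference on an array was 0.06 and the largest 1.31. By orientation it was 0.53 with knockout RNA in channel 1 and 0.69 with it in channel 2. Slc7a7 exceeded its heavy chain Slc3a2 by 0.25 ± 0.08 and on 15 of 16 arrays, and Slc3a2 exceeded Slc7a8 by 0.36 ± 0.16, also on 15 of 16 arrays. The order Slc7a7, Slc3a2, Slc7a8 held in each of the 4 mice. The mouse values of neighbours in that order, each averaged over both orientations, did not overlap. Single arrays did overlap: Slc7a8 reached 0.40, Slc3a2 ran from -0.19 to 0.41, and the lowest of Slc7a7 was 0.20. How many other gene pairs separate in this way was not counted. These differences are descriptions of the chosen genes and were not tested.

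**Figure D2:**
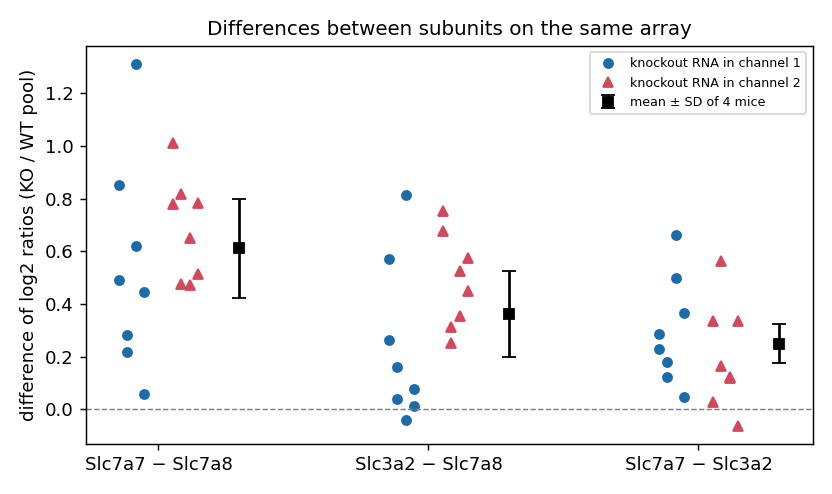
Difference between the log2 ratios (Pept2 knockout over wild-type pool) of a pair of subunits on the same array (vertical axis) for each pair (horizontal axis). Circles have the knockout RNA in channel 1 and triangles in channel 2, and squares with bars are the mean ± SD of 4 mice. For Slc7a7 minus Slc7a8 all 16 arrays lie above 0, from 0.06 to 1.31.

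Differences between the knockout mice do not involve the pool and are not the contrast on which the genes were chosen. They were tested, with arrays as technical repeats. A choice made on the ratios can still favour genes alike in all mice, so no conclusion is drawn from a missed threshold. None of the 3 probes passed the moderated F test over mice in limma: the adjusted p was 0.539 for Slc7a8, 0.86 for Slc7a7 and 0.919 for Slc3a2. Over all probes, 252 of 10804 passed (2.33%) and 1359 were at an unadjusted p under 0.05 (12.6%). The spread of single arrays about the mouse and dye means was 0.155 for Slc7a7, 0.158 for Slc3a2 and 0.217 for Slc7a8 on the log2 scale, against a median of 0.181 over probes. Across the 16 arrays, as a description without a test, Pearson's r was -0.03 between Slc7a7 and Slc7a8, 0.10 between Slc7a7 and Slc3a2 and 0.23 between Slc7a8 and Slc3a2, over arrays that share mice, dyes and the pool.

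Genes listed as amino acid carriers were set beside them, from lists of heteromeric partners, apical uptake carriers, and uniporters, cationic and sodium-coupled carriers. None of the 13 measured genes of these lists passed over all genes in limma, against 0.21% of all genes. Of the 13, Slc6a20b and Slc38a4 were at an unadjusted p under 0.05, against 16.8% of all genes. These counts do not set the listed carriers apart from all genes. Of the 8 other heteromeric subunits listed, Slc7a6 had the values needed and stood at 0.05 ± 0.06 (SD, n = 4 mice). Of 11 genes of apical uptake 4 were measured, with a median of 0.01. Slc6a20b, a sodium-coupled imino acid carrier of the brush border, stood at -0.15, and Slc36a1, a proton-coupled carrier of small neutral amino acids, at -0.04. Slc6a18, a neutral amino acid carrier of the brush border, stood at 0.06 and Slc1a1, which takes up glutamate and aspartate there, at 0.06.

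Of the 18 carriers in the remaining list 8 were measured, with a median of 0.06 against -0.00 over all genes. Of these 8, 6 were positive and 2 negative, against 48.2% positive over all genes. Slc38a4, a sodium-coupled carrier, stood highest at 0.20 ± 0.22, of which mouse 3 gave 0.52. Slc7a1, the cationic amino acid carrier CAT-1, stood lowest at -0.10 ± 0.18, from -0.30 in mouse 2 to 0.14 in mouse 3. The glutamine carrier Slc38a3 of the basolateral membrane stood at 0.09 and the neutral amino acid exchanger Slc1a4 at 0.09. Slc7a4 stood at 0.10, Slc43a3 at 0.04, the basolateral carrier Slc6a13 at 0.03 and Slc38a7 at -0.00. A place in the list does not show that a gene product carries amino acids, which holds for Slc7a4 and Slc43a3. The subunits were chosen with these ratios known, so their place beside the carriers is a description without a test. By their means over 4 mice and both orientations, Slc7a7 at 0.37 lay above and Slc7a8 at -0.24 below all 13 of these carriers. Without mouse 1, however, Slc6a20b at -0.21 lay below Slc7a8 at -0.18, and with knockout RNA in channel 2 only Slc38a4 at 0.37 lay above Slc7a7 at 0.32. Of the 13 carriers, 8 had opposite signs in the 2 orientations. The share over all genes was not counted, and over all probes the median size of the orientation difference was 0.12. The count is therefore not read as particular to the carriers. Slc6a20b stood at 0.04 with knockout RNA in channel 1 and at -0.34 with it in channel 2, and Slc6a18 at 0.19 and -0.06 in the same order. Slc7a6 stood at -0.07 in channel 1 and 0.16 in channel 2, Slc6a13 at 0.19 and -0.13, and Slc38a7 at 0.12 and -0.12. Slc36a1 stood at 0.05 on arrays 1 and 2 and at -0.14 on arrays 3 and 4.

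**Figure D3:**
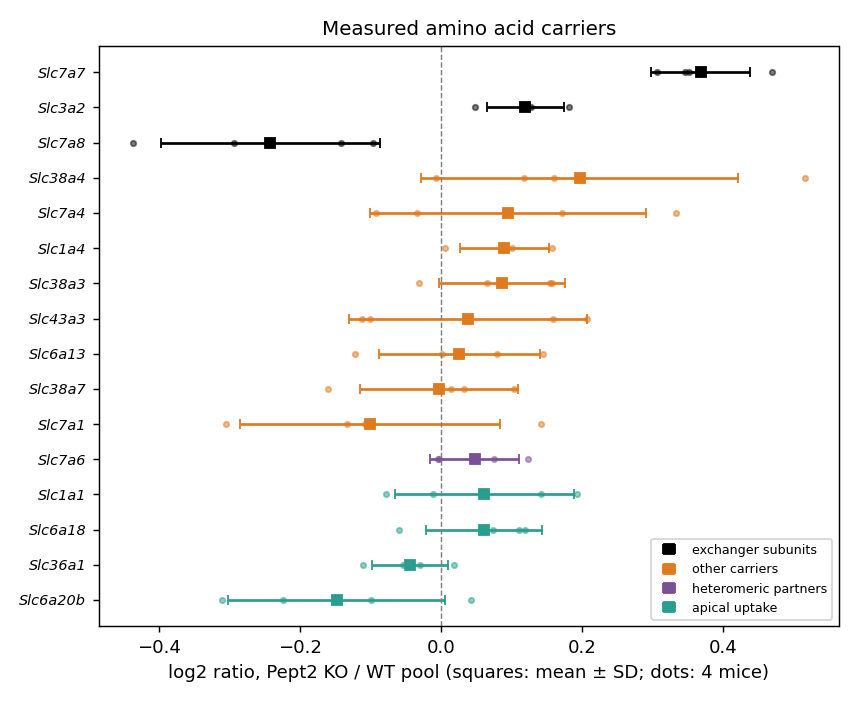
Log2 ratio of Pept2 knockout over wild-type pool (horizontal axis) for the 3 exchanger subunits and the 13 measured carriers of the lists (vertical axis). Squares with bars are the mean ± SD of 4 mice, dots the single mice, and colours the lists. The means of the 13 other carriers lie between -0.15 and 0.20, inside the span from Slc7a8 at -0.24 to Slc7a7 at 0.37, a span they leave without mouse 1 or with channel 2 only. The subunits were chosen with these ratios known, so the span is a description.

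A further list was one of arginine, ornithine and lysine metabolism. Of 10 measured genes 1 fell and none rose past the threshold, with a median of 0.05. Over all genes 0.145% fell and 0.0646% rose past it. The one that fell was Odc1, the first enzyme of polyamine synthesis, which stood at -0.77, -0.58, -0.56 and -0.28 in mice 1 to 4, with a mean of -0.55 (SE 0.07, adjusted p = 0.0304). It did not pass without mouse 1, 2 or 3 (adjusted p from 0.0906 to 0.122), with either orientation alone (0.164 for channel 1 and 0.0843 for channel 2), on arrays 3 and 4 (0.0591) or with scaled arrays (0.0598). Its ratio stayed negative there, from -0.47 without mouse 1 to -0.58 with scaled arrays. Ass1, which makes argininosuccinate from citrulline on the way to arginine, stood at 0.17 ± 0.22, and its mouse values were -0.03, 0.00, 0.44 and 0.28. Gamt, the last enzyme of creatine synthesis, stood at 0.38 ± 0.60, from -0.37 in mouse 1 to 1.07 in mouse 3. Its probe differed between mice (adjusted p = 2.8e-06 in the F test), and 27 other probes followed it with an r over 0.9. Such followers were not counted for other probes, and whether the value is that of Gamt was not tested.

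The list of genes that respond to amino acid shortage had 10 measured members. None passed over all genes, against 0.21% of all genes, and 1 was at an unadjusted p under 0.05, against 16.8% of all genes. Of the 10 members 5 lay above and 5 below 0, with a median of -0.00. Cth, which makes cysteine from cystathionine, stood at -0.18 ± 0.15 and was negative in all 4 mice. Phgdh, the first enzyme of serine synthesis, stood at 0.10 ± 0.12, and Psph, the last enzyme of that pathway, at -0.08 ± 0.08. Slc3a2 itself is a known target of this response and stood at 0.12.

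Slc7a7 and Slc7a8 are 24 places apart on chromosome 14 in the gene order of GRCm38.p6. For the neighbours the build gave names and order only. Of the 63 other genes from 20 places before the first to 20 places after the other, 13 were measured. None of these passed over all genes in limma, against 0.21% of all genes. Their median was 0.07, with 10 positive (76.9%, against 48.2% over all genes) and 3 negative, and 4 were at an unadjusted p under 0.05 (30.8%, against 16.8% over all genes). Among these 4, Oxa1l and Abhd4 were positive, while Mrpl52 and a gene between the light chain genes, at -0.14, were negative. Oxa1l, the gene next to Slc7a7, which encodes an insertase of the mitochondrial inner membrane, stood at 0.26, 0.13, 0.30 and 0.28 in mice 1 to 4, with a mean of 0.24 (SE 0.05, adjusted p = 0.115). With probes limited to those with a value on all 16 arrays, which tests fewer genes, its adjusted p was 0.0442. By orientation Oxa1l stood at 0.44 with knockout RNA in channel 1 and at 0.05 with it in channel 2. Abhd4, a lipase 5 places away on the same side, stood at 0.33, 0.04, 0.43 and 0.31, with a mean of 0.28 (SE 0.07, adjusted p = 0.149). Mrpl52, a mitochondrial ribosomal protein gene next to Slc7a7 on the other side, stood at -0.15 (SE 0.05, adjusted p = 0.185) and was negative in all 4 mice. Of the 23 genes between the light chain genes 6 were measured, and the one nearest to Slc7a8 was Acin1 at 0.05.

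**Figure D4:**
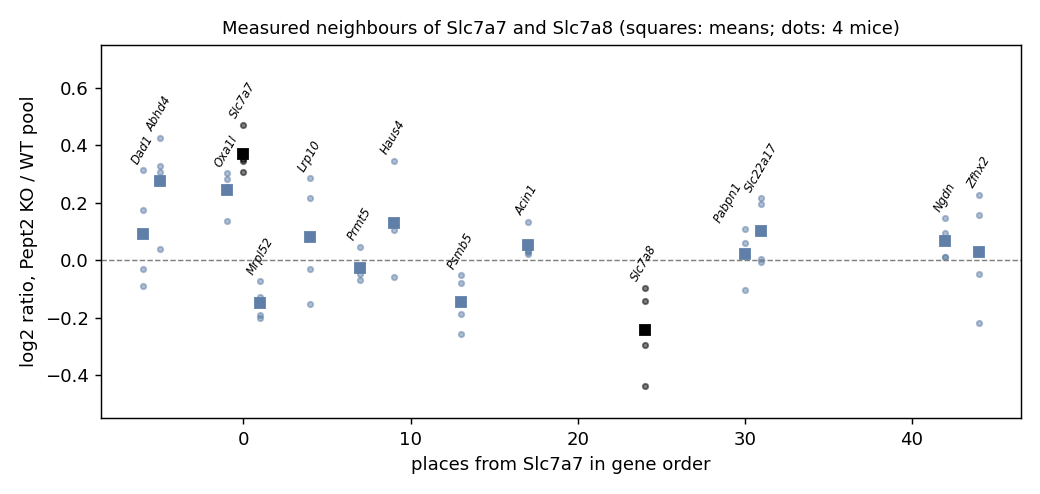
Log2 ratio of Pept2 knockout over wild-type pool (vertical axis) for the measured genes around Slc7a7 and Slc7a8, by their place in gene order counted from Slc7a7 (horizontal axis). Squares are means and dots the 4 mice, with Slc7a7 and Slc7a8 in black. Abhd4 at 0.28, Oxa1l at 0.24 (0.05 with knockout RNA in channel 2 only) and Slc7a7 at 0.37 lie within 5 places, and Mrpl52, next to Slc7a7 on the other side, is at -0.15. The measured gene 4 places from Slc7a7 on the side of Mrpl52 is at 0.08.

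The genes most like each subunit were found by Pearson's r over the 16 arrays among 2680 other genes with a value on all arrays, as a description without a test. Slc7a7 was followed by 1810058I24Rik (r = 0.86), Vmac (0.84) and Itih5 (0.83). Their mean ratios were 0.03, -0.01 and -0.06, so they follow its variation from array to array and not its shift from the pool. Slc7a8 was followed by Msrb1 (0.81), Smarcb1 (0.80) and H6pd (0.77), which stood at -0.10, -0.04 and -0.15. Slc3a2 was followed by Dvl1 (0.86), Clptm1 (0.78) and Shmt2 (0.77), which stood at 0.12, 0.13 and 0.14. With the mean of each orientation removed the 9 values of r lay between 0.68 and 0.91.

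Markers of the tubule and of other cell types were read beside these results. Over all genes 48.2% were positive, which is the share to set beside the sign counts of the marker lists. Of 10 measured proximal tubule markers 6 were positive, with a median of 0.03. Slc22a8, the basolateral organic anion carrier, stood higher at 0.48 (SE 0.05, adjusted p = 0.0149) and was the only one past the threshold, which 0.21% of all genes passed. Leaving out any single mouse left it short of the threshold (adjusted p from 0.0612 to 0.132), as did channel 2 alone (0.166) and arrays 1 and 2 alone (0.0701). Its ratio was from 0.45 to 0.53 with 1 mouse left out, 0.37 with channel 2 alone and 0.56 on arrays 1 and 2. Among the others, Slc13a3 stood at 0.21 and Miox at 0.16, while the 4 negative markers lay between -0.10 and -0.02. Collecting duct markers were positive in 4 of 5, with a median of 0.05 and Aqp2 at 0.27 (0.47 in channel 1 and 0.07 in channel 2), Hsd11b2 at 0.18 and Atp6v1g3 at -0.12. Endothelial markers were negative in 4 of 4 (median -0.12), with Esam at -0.19, Ehd3 at -0.17 and Flt1 at -0.07. Smooth muscle and fibroblast markers were negative in 6 of 7 (median -0.05), with Col3a1 at -0.32, Fbln1 at -0.18 and Myh11 at -0.14. Of the loop and distal tubule markers 2 were measured. Ppp1r1a stood at -0.20, while Umod, at a mean of -0.00, had -0.14, -0.33, 0.19 and 0.27 in mice 1 to 4, and its probe differed between mice (adjusted p = 0.0164 in the F test). The single podocyte marker, Podxl, stood at -0.19. Leukocyte markers were positive in 3 of 5 (median 0.07), with Ptprc at 0.15, Cd74 at 0.12 and Laptm5 at -0.13, and the 1 adrenal marker, Star, stood at 0.03. By orientation the probe of Ptprc stood at 0.37 with knockout RNA in channel 1 and at -0.07 with it in channel 2. Without mouse 2 that probe stood at 0.16, but a probe blank in mouse 2 then entered and took the mean of Ptprc to -0.03. None of the markers other than Slc22a8 passed over all genes in the limma fit, although Ehd3 taken from its probe with a value on all 16 arrays stood at -0.24 and passed (adjusted p = 0.0392). In the fit on 1 orientation Ehd3 stood at -0.03 with knockout RNA in channel 1 and at -0.31 with it in channel 2. The part of the markers in the ratios of the subunits was not tested.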

How the data were processed

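Per the labels, total RNA was labelled indirectly with Cy3 or Cy5, scanning used a GenePix 4000A and image analysis GenePix Pro 3.0, and the authors subtracted background and scaled each array to a median ratio of 1. The deposited values were taken as log2 ratios of the channels, since of 720 distances between repeated values 46.5% equalled, within 2e-06, the log2 of a ratio between integers no larger than 20, and 0% natural or decimal logarithms. The dye of each channel, the numerator and the filter behind blank cells are not given in the sources used here. Without intensities no dim spot could be removed.

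Each array was centred on its median and turned to knockout over pool. Arrays were averaged within orientation and then within mouse, and a gene was the mean of its single-gene probes with values in every mouse and orientation. Of 20205 probes 11723 had 1 symbol and 806 several, and 11590 matched the current gene table. Tests used limma 3.58.1 in R 4.3.3 over all genes or probes, two-sided, with Benjamini-Hochberg adjustment at 0.05: the ratio against 0, the orientation difference, and a moderated F test between mice with a dye term. All were tested on simulated data. Alternatives varied centring, scaling, orientation, arrays, mice and blanks. The text names Slc15a2, the subunits, all measured carriers, up to 3 genes with the smallest p of each other list, and the 3 genes most like each subunit, with Acin1 added. Members and lists were chosen with earlier results of these data known. The number of mice limits precision.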

Additional observations from a re-analysis of the deposited data

Results flagged for a closer look

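Of 45 genes named from the lists or as members, 1 had a mouse far from the others. Hsd11b2, a collecting duct marker that encodes the enzyme inactivating glucocorticoid, stood at -0.10 in mouse 2, against 0.26, 0.25 and 0.32 in mice 1, 3 and 4, and the gap made up 0.85 of the whole range. Chance flags about 1 in 20 groups.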

How the results depend on the processing

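Under 12 alternatives (no centring, each mouse left out, each orientation alone, arrays 1 and 2 or 3 and 4 alone, scaled arrays, medians over arrays, probes on all arrays) the log2 ratio of Slc7a7 stayed between 0.32 and 0.42, that of Slc3a2 between 0.09 and 0.15 and that of Slc7a8 between -0.37 and -0.12, the last being with knockout RNA in channel 1 only. Read as channel 2 over channel 1 they were -0.37, -0.12 and 0.24. Slc7a7 minus Slc7a8 stayed between 0.53 and 0.69. The orientation difference of Slc3a2 was -0.0302 without centring and from -0.0287 (without mouse 2) to 0.0217 with 1 mouse left out, and that of Slc7a7 from -0.0197 (without mouse 3) to 0.172. No subunit passed the test between mice or between orientations in any alternative run.

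Of the list genes 2, Odc1 and Slc22a8, passed in the reported fit. With values on all 16 arrays only, 3 passed, beside 40 of 2681 genes (1.49%). With 1 mouse left out 0 to 1 passed (1 without mouse 4, none without mouse 1, 2 or 3), 1 with channel 1 only, 0 with channel 2 only, 0 on arrays 1 and 2 (where Odc1 could not be fitted), 1 on arrays 3 and 4, and 1 with scaled arrays. With arrays as measurements and the mouse as a random block (correlation 0.014) 12 passed, beside 467 of all 6191 genes (7.54%, against 0.21% in the reported fit), since technical arrays then count nearly as animals. Over all genes the count was 4 on arrays 1 and 2 and 8 on arrays 3 and 4, against 13. The cause of the other changes was not tested. No gene of the carrier lists that could be fitted passed in any of the 13 alternatives. On arrays 3 and 4, and with values on all 16 arrays, only 7 of the 13 carriers were fitted. Of 455 values of list genes under the alternatives, 26 moved by 1 SD or more. Counted apart from these, 13 lost their call and 2 gained one.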
